A study of Mus musculus with 38 samples.

Results

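The cytosolic ribosomal protein genes of the mouse were followed through hypoxia, co-culture and panobinostat in 3 cell types. Members were the genes whose symbol is Rpl or Rps followed by a number, together with Rplp0, Rplp1, Rplp2 and Rpsa. Pseudogenes marked -ps, the Rps6k kinases and Rps19bp1 were left out. The rule gave 92 of the 55487 genes in the count tables, 55 of the large subunit and 37 of the small subunit. In the GENCODE M21 annotation 85 of them are protein coding and 7 are annotated as processed pseudogenes (Rpl32l, Rpl37rt, Rpl6l, Rps12l1, Rps3a2, Rps3a3 and Rps4l).

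Poly(A) RNA was sequenced in 38 libraries that fall into 18 groups. BV2 is a murine microglial cell line, GL261 is a murine glioma line that here stably carried the plasmid pEGFP-N1, and BMDM are primary bone marrow-derived macrophages of WT genotype. Each was kept alone or in direct contact with a partner for 16 h, at 21% O2 (normoxia) or below 0.1% O2 (hypoxia). Glioma cells were added at 2 for each BV2 cell or 1 for each BMDM, and cells were fixed in 3% glyoxal. The medium held 2% serum for BV2 and 10% for BMDM. In a second experiment BV2 cells and BMDM without a partner received DMSO in normoxia, DMSO in hypoxia or 10 nM panobinostat, a histone deacetylase inhibitor, in hypoxia. Groups had 2 libraries each, except the BMDM co-cultures with 3. How co-cultured cells were separated, and whether replicates of every group came from separate cultures, is not given in the sources used here, so p-values measure only the spread between these libraries.

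A ribosome is built from ribosomal RNA and a set of ribosomal proteins, most of which are needed in equal numbers. The genes for these proteins are usually expressed together at high levels. Their mRNAs begin with a run of pyrimidines, the 5′ terminal oligopyrimidine motif. Through this motif Larp1 and the growth-regulating kinase mTOR control how much of the mRNA is translated and how stable it is. Hypoxia is known to restrain mTOR, among other routes through the inhibitor Ddit4. These libraries measured mRNA and not translation.

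Promoter sequences from RefSeq (GRCm38.p6) were matched to 67 of the 92 members, in 79 windows that run from 250 bases before to 50 bases after a start. The search took a stretch of at least 5 pyrimidines that opens with C within 10 bases of the start. Such a stretch can be part of a longer pyrimidine run that begins further upstream. It was present in 54.4% of the members' windows, against 30.7% of 32851 windows of all genes. The motif TTCCGG, searched on both strands, was present in 46.8% of the members' windows and 14.9% of all. Of these, 6 windows are given from 30 bases before to 20 bases from the start on, 5′ to 3′ on the gene's strand, with the pyrimidine run in capitals. Rpl38, Rps6, Rpl35 and Rpl27a show the usual form, and Rps27l and Rpl7l1 are shown because their mRNAs fell in hypoxia in at least 1 comparison of each cell type. They lie at chr11:114668550-114668599 (Rpl38, plus strand), chr4:86857348-86857397 (Rps6, minus strand), chr2:39005112-39005161 (Rpl35, minus strand), chr7:109519165-109519214 (Rpl27a, plus strand), chr9:66946056-66946105 (Rps27l, plus strand) and chr17:46782637-46782686 (Rpl7l1, minus strand).
Rpl38: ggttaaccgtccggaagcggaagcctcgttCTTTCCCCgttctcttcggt
Rps6: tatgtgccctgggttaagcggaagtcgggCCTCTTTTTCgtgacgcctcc
Rpl35: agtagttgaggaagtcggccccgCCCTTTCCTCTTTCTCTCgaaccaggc
Rpl27a: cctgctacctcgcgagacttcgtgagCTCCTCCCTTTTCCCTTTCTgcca
Rps27l: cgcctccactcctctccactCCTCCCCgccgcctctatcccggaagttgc
Rpl7l1: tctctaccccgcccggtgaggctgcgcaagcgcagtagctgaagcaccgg
In Rpl38 the marked stretch starts at the annotated start itself, directly after other pyrimidines. In Rps27l the marked stretch ends before the start. It is only the part within 10 bases of a longer pyrimidine run that begins further upstream, so the full run does not begin within the 10 bases. A second Rps27l window holds none by this rule. The Rpl7l1 window has no such run. These are matches of letters and were not tested as sites.

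Libraries held 9634700 to 27238933 counts, so that 3 counts in a library correspond to 0.110 to 0.311 CPM (counts scaled to a library of the same size). Cell type markers bear on the labels as follows. The summed level of 12 myeloid markers was 4056 to 5451 CPM in the BV2 monocultures, 5.01 to 13.1 CPM in the GL261 monocultures and 16306 to 20927 CPM in the BMDM monocultures. In GL261 monocultures in normoxia Fabp7 was at 0.13 CPM and Thy1 at 0, while Sparc, Nes and Sox2 were abundant. Genes whose level in the partner was 100-fold or more above that in the cells themselves showed a median level in the co-cultures of 0.568% to 0.951% of the partner's level in BV2 in normoxia and 2.07% to 2.36% in hypoxia. For GL261 these values were 0.630% to 0.915% and 0.218% to 0.256%, and for BMDM 1.29% to 3.70% and 1.72% to 6.28%. The part of partner RNA in the results was not tested. The BMDM libraries of the panobinostat experiment stood apart: 12 genes of collagens, matrix and fibroblast receptors, a list chosen after seeing the data, summed to 6088 to 34088 CPM there and to 131 to 1039 CPM in the other BMDM libraries. In that experiment the myeloid markers summed to 29838 and 20863 CPM with DMSO in normoxia, 4089 and 12652 CPM with DMSO in hypoxia and 1419 and 6120 CPM with panobinostat. Of 10 hypoxia genes such as Vegfa and Slc2a1, 8 to 10 were called higher in every hypoxia comparison except that of the BMDM with DMSO, with 0 called and a median log2 fold change of 2.32.

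Members took 2.82% to 6.70% of all counts of a library. In GL261 monocultures the share was 6.02% and 4.35% in normoxia and 3.24% and 3.84% in hypoxia. In GL261 co-cultures it was 6.47% and 5.96% in normoxia and 3.07% and 2.96% in hypoxia. The hypoxic GL261 libraries were all lower than the normoxic ones of the same culture. In BV2 monocultures the share was 5.00% and 4.27% in normoxia and 4.19% and 3.64% in hypoxia, and in BV2 co-cultures 5.66% and 6.22% against 3.14% and 3.58%. The BV2 groups did not overlap either, though the monocultures nearly met. BMDM monocultures had 3.17% and 3.05% in normoxia and 3.49% and 3.11% in hypoxia, which overlap, and BMDM co-cultures had 3.49%, 2.95% and 4.30% in normoxia and 3.82%, 3.71% and 3.76% in hypoxia, which overlap too. These are shares of the sequenced mRNA, so less of one RNA per cell, more of other RNAs and a different mix of cells cannot be told apart.

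**Figure D1:**
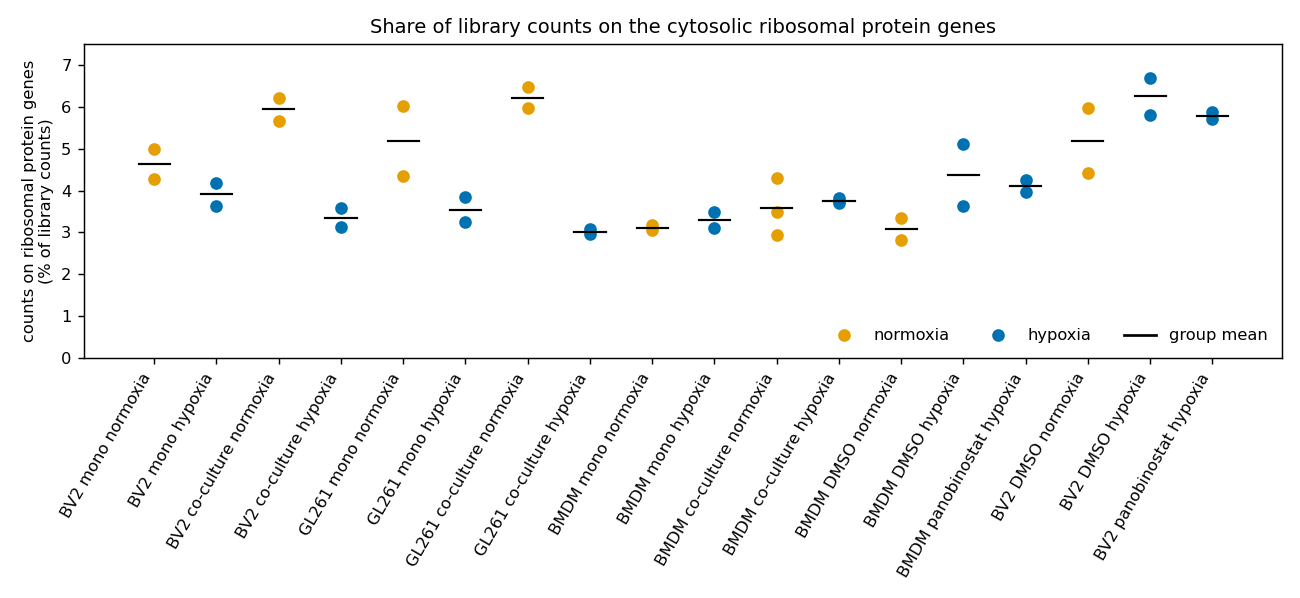
Share of each library's counts that fell on the 92 cytosolic ribosomal protein genes (y axis, % of library counts) in the 18 groups (x axis). Points are libraries, coloured by oxygen, and lines are group means; hypoxic GL261 libraries and hypoxic BV2 co-cultures lie between 2.96% and 3.84%, below their normoxic counterparts.

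Hypoxia lowered the ribosomal protein mRNAs as a body in GL261 cells and in co-cultured BV2 cells. In BV2 monocultures the share of members called lower was near that of all genes, and in BV2 with DMSO the members' median was positive (0.38). At most 2 members were called lower in any BMDM comparison. In GL261 co-cultures 79 of the 89 members tested were called lower and 0 higher by edgeR's quasi-likelihood test with Benjamini-Hochberg adjustment over all genes (adjusted p under 0.05), where 25.6% of all genes tested were called lower and 26.8% higher. The median log2 fold change of the members was -1.03, against -0.04 over all genes. In GL261 monocultures 45 of 89 were lower and 0 higher, with 21.4% of all genes called lower and 23.2% higher, and the median was -0.53 against -0.03. Co-cultured BV2 cells had 82 of 88 members lower and 0 higher, against 32.1% and 35.2% of all genes, with a median of -0.78 against 0.04. In BV2 monocultures 24 of 88 were lower and 1 higher, and here the share called lower over all genes was 31% (30.9% higher), so that the members' count is near the background, with a median of -0.20 against 0.00. Members at 0 or a few counts did not enter these tests: Rpl10l, Rpl39l and Rps4l in both lines, and Rpl3l in BV2.

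Counts in the monocultures depended on single libraries. Without replicate 1 of the normoxic BV2 monoculture 5 members were called, without replicate 2 of the hypoxic one 9, of which 3 higher, and without replicate 2 of the normoxic one 33. For GL261 monocultures 17 were called without normoxic replicate 1, 25 without hypoxic replicate 1 and 70 without normoxic replicate 2. The co-culture counts stayed between 70 and 82 (BV2) and between 72 and 74 (GL261) whichever library was left out.

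**Figure D2:**
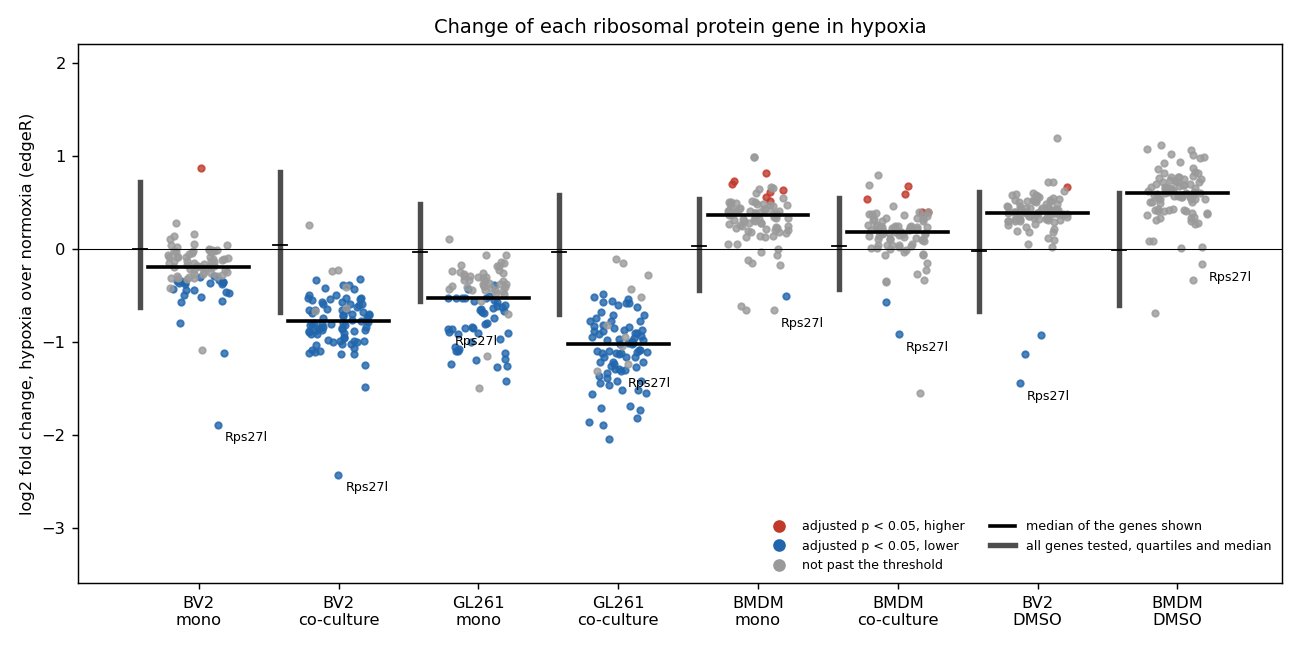
Each point is one ribosomal protein gene, with its log2 fold change of hypoxia over normoxia (y axis) in 8 comparisons (x axis), coloured by whether adjusted p was under 0.05 and in which direction. Black lines are members' medians, from -1.03 in GL261 co-cultures to 0.60 in BMDM with DMSO, and grey bars are the quartiles and median of all genes tested.

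Both subunits took part alike. In GL261 co-cultures 46 of 53 large subunit genes and 33 of 36 small subunit genes were lower, with medians of -1.04 and -1.01. In BV2 co-cultures the counts were 49 of 52 and 33 of 36, with medians of -0.80 and -0.77. All 24 members lower in BV2 monocultures were also lower in BV2 co-cultures, where they make up 29.3% of the 82. In GL261 43 members were lower in both cultures, 95.6% of the 45 and 54.4% of the 79. Between the lines 77 members were lower in both co-cultures, 93.9% of those in BV2 and 97.5% of those in GL261. Most members were lower in each co-culture, so large overlaps follow from these counts alone. Overlaps over all genes were not counted, so these values do not show that the same members respond.

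The members with the largest falls in GL261 were Rpl41 and Rpl27. Rpl41, the shortest ribosomal protein (chr10:128548114-128549305 in GRCm38, minus strand), was at 751 and 522 CPM in normoxic and 208 and 267 CPM in hypoxic GL261 monocultures. In the co-cultures it was at 1009 and 847 CPM in normoxia and 231 and 218 CPM in hypoxia. The groups did not overlap in either culture. Its log2 fold change was -1.42 ± 0.19 (SE, n = 2 against 2, edgeR adjusted p = 0.00017) in monocultures and -2.05 ± 0.20 (adjusted p = 1.1e-05) in co-cultures. Rpl27, a large subunit protein (chr11:101442298-101445529, plus strand), was at 570 and 357 CPM against 171 and 235 CPM in GL261 monocultures and at 633 and 580 CPM against 166 and 160 CPM in co-cultures. In BV2 it went from 296 and 230 CPM to 172 and 131 CPM alone, and from 350 and 403 CPM to 126 and 142 CPM in co-culture. All hypoxic libraries of these cultures were below the normoxic ones. With DMSO, by contrast, Rpl27 in BV2 was at 229 to 332 CPM in normoxia and 280 to 301 CPM in hypoxia, which overlap. The changes were -1.89 ± 0.22 in GL261 co-cultures (adjusted p = 3.4e-05) and -1.49 ± 0.15 in BV2 co-cultures (adjusted p = 2.9e-07), and these calls held under all 13 alternative settings each.

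Members differed in how far they fell. The stalk of the large subunit, which recruits the GTPases of translation, is made of Rplp0, Rplp1 and Rplp2 on a base with Rpl12. Rplp2 fell by 1.00 on the log2 scale in BV2 co-cultures and by 1.45 in GL261 co-cultures, whereas Rplp0 had -0.24 (edgeR adjusted p = 0.12) and -0.61 (adjusted p = 0.011). Between them lay Rplp1 with -0.53 and -1.03 and Rpl12 with -0.85 and -0.78. Rplp0 is also one of the most abundant members, with 2145 and 1746 CPM in normoxic BV2 monocultures. Rpl5 and Rpl11 carry the 5S RNA into the ribosome and can bind Mdm2 when free. Rpl11 fell by 0.66 in BV2 and 1.30 in GL261 co-cultures, and Rpl5 by 0.43 and 0.68. Rps6, the substrate of the S6 kinases, fell by 0.71 and 0.77, Rps3, near the mRNA entry, by 0.50 and 0.78, and Rpsa by 0.44 and 0.57. Rps19, the gene most often mutated in Diamond-Blackfan anaemia, fell by 0.77 and 1.02, and Rps14 by 0.80 and 0.88. Those named from Rpl11 to Rps14 all passed the test in both co-cultures.

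Rpl3, which lies near the peptidyl transferase centre, was among the members that changed least in GL261. It was at 910 and 847 CPM in normoxic and 909 and 772 CPM in hypoxic GL261 monocultures, and at 1080 and 996 CPM against 1014 and 849 CPM in co-cultures. The groups overlapped, and the log2 fold changes were -0.06 ± 0.15 (edgeR adjusted p = 0.75) and -0.16 ± 0.15 (adjusted p = 0.40). In BV2 co-cultures Rpl3 fell by 0.33 ± 0.12 (edgeR adjusted p = 0.022, but 0.13 without normoxic replicate 2). Rpl4, a protein of the peptide exit tunnel, had 0.10 ± 0.18 and -0.11 ± 0.18 in GL261 (adjusted p = 0.67 and 0.62), and -0.54 ± 0.12 (adjusted p = 0.00080) in BV2 co-cultures. In GL261 co-cultures the 10 members tested and not called were Rpl3, Rpl4, Rpl3l, Rpl24, Rpl32l, Rpl36al, Rpl6l, Rps12l1, Rps27rt and Rps3a3. In BV2 co-cultures they were Rplp0, Rpl24, Rpl36al, Rps12l1, Rps27rt and Rps3a2. Among the 8 exit tunnel proteins listed, which include Rpl4, Rpl17, Rpl39 and Rpl35, 7 fell in GL261 co-cultures and 8 in BV2 co-cultures.

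Shorter coding sequences went with larger falls in GL261. Coding lengths of 85 members ran from 75 to 1257 bases. In GL261 co-cultures the members of up to 396 bases had a median log2 fold change of -1.34 and those above 576 bases -0.77, and Spearman's rho of change against length was 0.58 over 83 genes. In GL261 monocultures the medians were -0.85 and -0.35 and rho was 0.54. BV2 co-cultures had -0.85, -0.66 and 0.34, and BV2 monocultures had a rho of 0.05. Genes of one library are not independent, so these are descriptions. Other abundant genes in the same length range followed length too: in GL261 co-cultures 42 short ones had a median of -0.95 and 453 long ones -0.06. Among the short genes, members and others thus differed less than among the long ones, and the part of length in the members' falls was not tested.

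**Figure D3:**
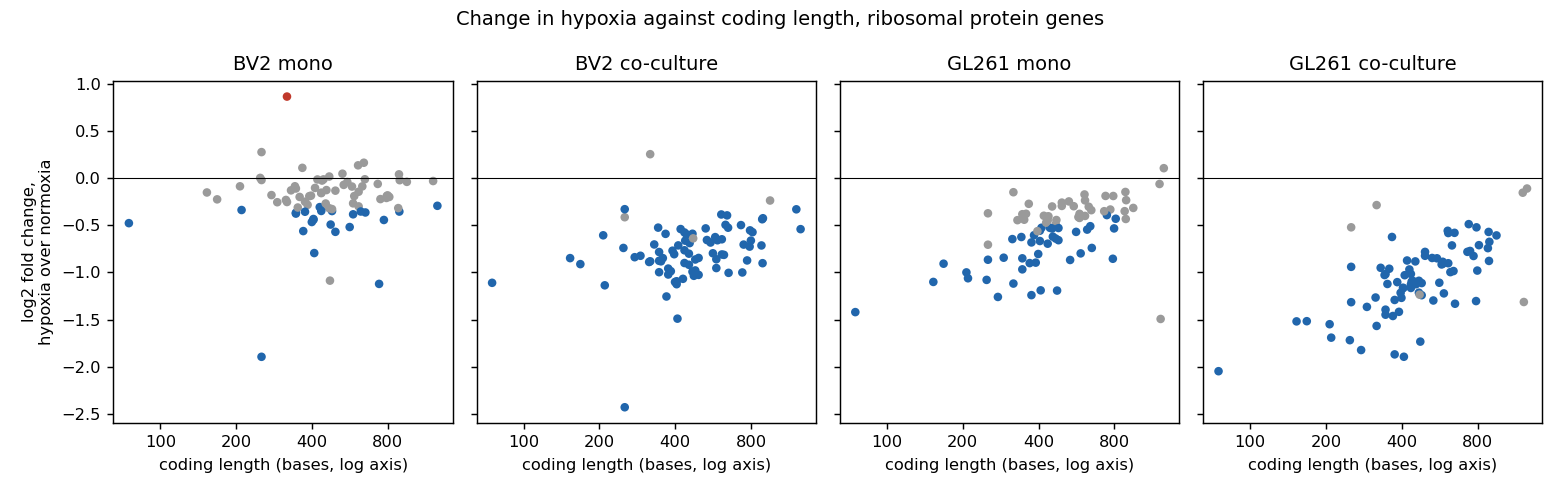
Log2 fold change of hypoxia over normoxia (y axis) against coding length in bases (x axis, log scale) for the ribosomal protein genes, one panel per comparison. In GL261 the points rise with length, with Spearman's rho of 0.54 in monocultures and 0.58 in co-cultures, and in BV2 monocultures they do not (rho 0.05).

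Reads of ribosomal protein genes can match their many processed pseudogenes. Of the 92 members, 70 share over 10% of their transcript's 75-base words with other genes, and the median is 19.2%. Of the members that share less than 10%, 18 of 18 fell in BV2 co-cultures with a median of -0.83, against 64 of 70 and -0.75 for the rest, and in GL261 co-cultures 17 of 19 fell with a median of -1.02, against 62 of 70 and -1.04. In GL261 monocultures 7 of 19 fell (median -0.44), against 38 of 70 (median -0.53). In BMDM co-cultures the 2 members called lower were among the 20 that share less, and the 5 called higher were among the other 69. The part of shared reads in these counts was not tested. Of 98 pseudogene rows tested, 33 were lower and 1 higher in BV2 co-cultures, near the 32.1% of all genes called lower there, and 35 were lower and 0 higher in GL261 co-cultures, against 25.6% of all genes called lower. Rpl24 was below 1 CPM in every library, and 46.99% of its exon bases overlap the gene Gm28037. Rps10 has 20.6% in RPS10-NUDT3. Levels of such members are uncertain, since how the counting treated shared reads is not given in the sources used here.

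Rps27l and Rpl7l1 each fell in hypoxia in at least 1 comparison of all 3 cell types, and Rps27l had the largest fall among the members called in each of the 3 BV2 comparisons. Rps27l (chr9:66946086-66949516, plus strand) encodes a close copy of Rps27, and its human counterpart is a target gene of p53. It was at 81.0 and 73.3 CPM in normoxic BV2 monocultures and 23.4 and 18.2 CPM in hypoxic ones. In BV2 co-cultures it was at 85.1 and 91.2 CPM against 15.4 and 17.3 CPM, and with DMSO at 43.2 and 59.4 CPM against 14.7 and 22.9 CPM. No hypoxic BV2 library reached a normoxic one. The log2 fold changes were -1.90 ± 0.14 (edgeR adjusted p = 7.7e-09), -2.43 ± 0.14 (adjusted p = 7.1e-10) and -1.45 ± 0.27 (adjusted p = 0.0029), and all 3 calls held under every one of 13 alternatives each.

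In GL261 Rps27l was at 51.9 and 33.6 CPM in normoxia against 23.1 and 23.8 CPM in hypoxia, and in co-culture at 56.4 and 46.3 CPM against 23.0 and 18.3 CPM. These groups were apart as well, with changes of -0.87 ± 0.20 (edgeR adjusted p = 0.0048, but 0.065 without normoxic replicate 1) and -1.32 ± 0.21 (adjusted p = 0.00028). In BMDM it was at 46.1 and 49.4 CPM against 29.5 and 30.9 CPM alone, and at 66.3, 43.1 and 66.5 CPM against 36.3, 35.1 and 21.3 CPM in co-culture. The change passed the test in BMDM co-cultures (-0.92 ± 0.22, n = 3 against 3, adjusted p = 0.0068) and missed it in monocultures (-0.66 ± 0.26, adjusted p = 0.089). With DMSO BMDM had 50.3 and 48.8 CPM in normoxia and 52.9 and 35.0 CPM in hypoxia, which overlap. Its near copy Rps27, a zinc-finger protein of the small subunit, fell with it in co-cultured lines, by 0.33 ± 0.14 in BV2 (edgeR adjusted p = 0.048, but 0.50 without normoxic replicate 2) and by 0.94 ± 0.19 in GL261 (adjusted p = 0.0013). Alone it had 0.27 ± 0.14 in BV2 (adjusted p = 0.10) and -0.37 ± 0.18 in GL261 (adjusted p = 0.12). In BMDM, by contrast, Rps27 rose by 0.73 ± 0.18 alone (edgeR adjusted p = 0.014, but 0.064 with library totals and up to 0.14 with a library left out) and by 0.67 ± 0.14 in co-culture (adjusted p = 0.0044).

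Rpl7l1 (chr17:46773907-46782672, minus strand) encodes a relative of Rpl7 that is found on large subunits under assembly. In BV2 it was at 197 and 177 CPM against 90.5 and 81.4 CPM alone, at 181 and 196 CPM against 95.5 and 92.9 CPM in co-culture, and at 104 and 166 CPM against 65.1 and 77.6 CPM with DMSO. Hypoxic libraries were lower in each case. The changes were -1.12 ± 0.11 (edgeR adjusted p = 2.7e-07), -1.002 ± 0.11 (adjusted p = 8.8e-07) and -0.92 ± 0.26 (adjusted p = 0.018, but 0.12 without normoxic replicate 2). In BMDM it fell from 120 and 112 CPM to 87.3 and 75.9 CPM alone (-0.51 ± 0.15, adjusted p = 0.032) and from 110, 106 and 127 CPM to 80.7, 75.8 and 74.5 CPM in co-culture (-0.57 ± 0.12, adjusted p = 0.0045). The monoculture call was lost when any 1 of the 4 libraries was left out, while the co-culture call held under all 15 alternatives. In GL261 it had -0.19 ± 0.14 (adjusted p = 0.30) alone and fell by 0.49 ± 0.14 (adjusted p = 0.014) in co-culture.

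**Figure D4:**
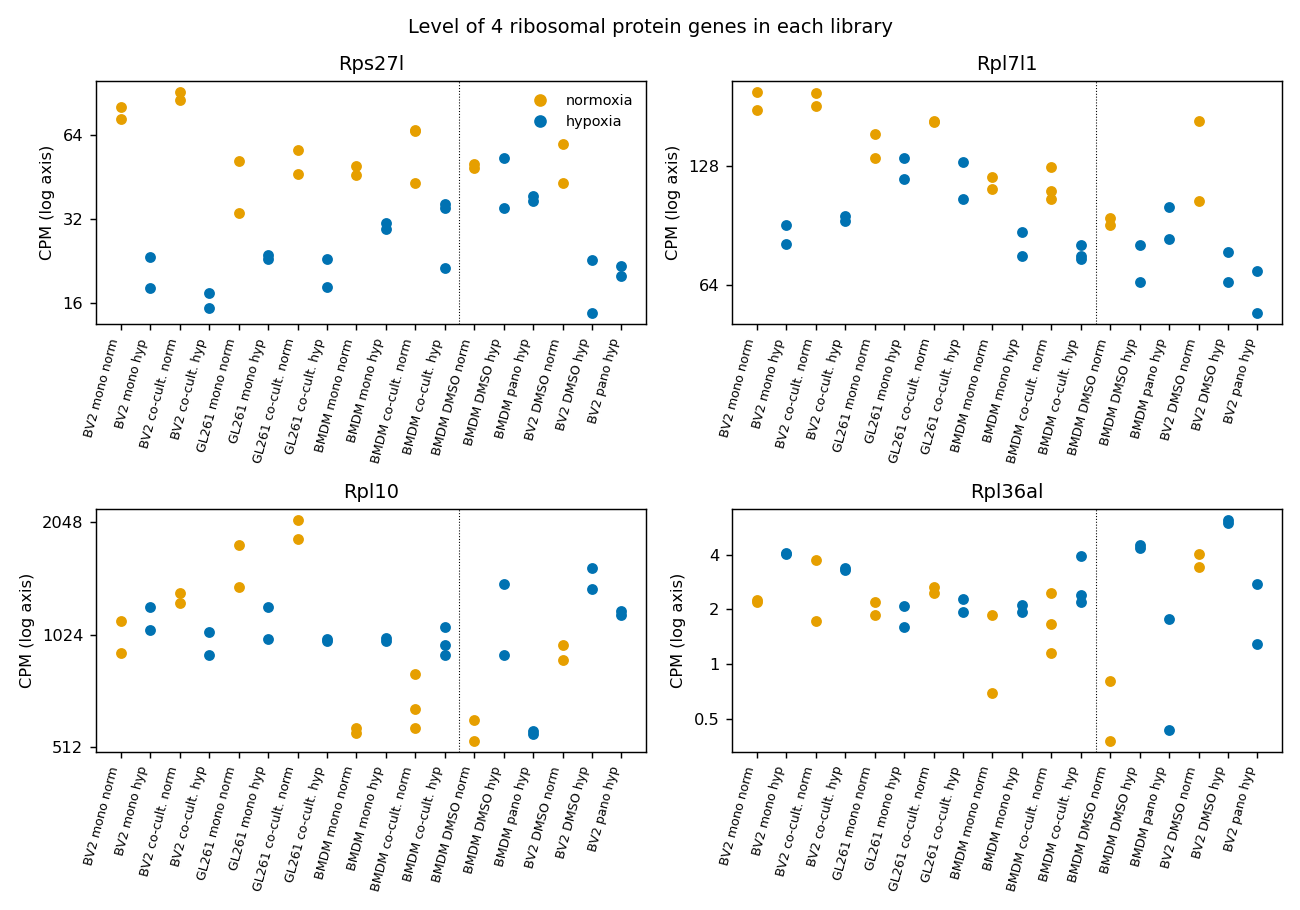
Level in CPM (y axis, log scale) of 4 ribosomal protein genes in each library of the 18 groups (x axis), coloured by oxygen. Rps27l and Rpl7l1 lie lower in every hypoxic BV2 group than in the matching normoxic group, for Rps27l 15.4 to 23.4 CPM against 73.3 to 91.2 CPM without DMSO.

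The other second copies differed widely in level. Per kilobase of transcript in normoxic monocultures Rpl22, an RNA-binding large subunit protein, stood at 384 CPM and its copy Rpl22l1 at 25.7 CPM in BV2, at 112 and 74.1 CPM in GL261, and at 68.9 and 42.9 CPM in BMDM. Both fell in the hypoxic co-cultures, Rpl22 by 0.99 and Rpl22l1 by 0.59 in BV2 and by 1.10 and 0.63 in GL261. Rpl10l, known from testis, had 0 counts in every library. Rpl39l, known from male germ cells, was at or below 0.11 CPM in all BV2 and GL261 libraries. BMDM libraries of the co-culture experiment had it at 0.10 to 1.35 CPM. In the BMDM of the panobinostat experiment it was at 9.94 and 7.94 CPM, 11.5 and 7.42 CPM, and 22.8 and 18.6 CPM with DMSO in normoxia, DMSO in hypoxia and panobinostat. Its difference with panobinostat missed the test (1.13 ± 0.34, edgeR adjusted p = 0.12), and these are the libraries whose matrix and myeloid genes stood apart. Rpl36al, a copy of Rpl36a made from a gene without introns, was called higher in hypoxic BV2 monocultures at a low level, 2.25 and 2.18 CPM against 4.07 and 4.01 CPM (0.86 ± 0.29, adjusted p = 0.018). That call was lost without either normoxic library, and 24.5% of its exon bases overlap Gm49383.

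The hypoxia effects of BV2 and GL261 monocultures were compared directly. In one fit of the 16 BV2 and GL261 libraries, 21 of 89 members had a higher log2 change in BV2 than in GL261 monocultures and 2 a lower one, against 18.7% of all genes called in each direction and 37.4% in either. The 23 calls are thus a smaller share of the members than of all genes. The median difference was 0.42, and 0.15 over all genes. Rps21, a small subunit protein, was at 418 and 346 CPM in normoxia and 412 and 352 CPM in hypoxia in BV2, where the groups overlap, and at 430 and 275 CPM against 153 and 181 CPM in GL261, where they do not. The difference of its changes was 1.18 ± 0.25 (edgeR adjusted p = 0.0012). The 2 in the other direction were Rps27l (-0.93 ± 0.25, adjusted p = 0.0067) and Rpl7l1 (-0.83 ± 0.18). The count was 7 without normoxic GL261 replicate 1, 41 without normoxic replicate 2, 11 without hypoxic GL261 replicate 1, 9 without normoxic BV2 replicate 2 and 13 without hypoxic BV2 replicate 1.

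In macrophages few members changed, and more of these rose than fell, except in monocultures scaled by library totals. In BMDM monocultures 7 of 89 members were called higher and 1 lower in hypoxia, where 13.3% of all genes were called higher and 10.6% lower. The median of the members was 0.36 against 0.03. In BMDM co-cultures 5 were higher and 2 lower, against 17.5% and 17.3% of all genes, with a median of 0.18 against 0.03. These shares are below those of all genes, and the difference of the BMDM effects from those of BV2 and GL261 in this experiment was not tested. With library totals in place of TMM scaling (trimmed mean of M-values) the monoculture calls were 1 higher and 2 lower and the median was 0.11. Leaving out any 1 of the 4 monoculture libraries left 0 or 1 calls, and the co-culture count was 4 without normoxic replicate 1 and 23, of which 21 higher, without normoxic replicate 3.

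Rpl10, which joins the large subunit late in the cytoplasm (chrX:74270812-74273135, plus strand), was at 577 and 557 CPM in normoxic and 982 and 1004 CPM in hypoxic BMDM monocultures. In co-culture it was at 648, 576 and 801 CPM against 959, 1076 and 900 CPM. No normoxic library reached a hypoxic one. It rose by 0.81 ± 0.18 (edgeR adjusted p = 0.0090) and 0.54 ± 0.15 (adjusted p = 0.015), while in GL261 it fell by 0.51 and 0.99. The BMDM monoculture call of Rpl10 was lost when any 1 of the 4 libraries was left out (edgeR adjusted p up to 0.10). Its BMDM co-culture call was lost without normoxic replicate 1 (adjusted p = 0.068), without normoxic replicate 2 and with the compared groups alone. Its GL261 monoculture call was lost without normoxic replicate 1 (-0.31, adjusted p = 0.19), without hypoxic replicate 1 and with the compared groups alone. Rps27 and Rpl17 rose in both BMDM cultures, Rpl17, an exit tunnel protein, by 0.63 ± 0.18 (adjusted p = 0.027) and 0.59 ± 0.15 (adjusted p = 0.0095), and in co-culture both calls held under all 15 alternatives. Rps3a3, at 0.39, was also called higher in co-culture and was named after its values were seen. Summed myeloid markers were lower in hypoxic than in normoxic BMDM co-cultures (9956 to 18033 against 19377 to 22610 CPM), and their part in these changes was not tested.

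Hypoxia gave a different picture in the BV2 cells of the second experiment, which received DMSO. There 1 member was called higher and 3 lower of 87, against 17.2% and 20.2% of all genes, and the median was 0.38 against -0.03. DESeq2 called 13 higher and 3 lower, so the number called depends on the tool. At an unadjusted p under 0.05 edgeR also had 13 higher and 3 lower. Rpl10 was the one called higher by edgeR, from 873 and 962 CPM to 1544 and 1358 CPM (0.66 ± 0.23, edgeR adjusted p = 0.046). This call was lost with library totals, with the compared groups alone and without either hypoxic library, with an adjusted p of up to 0.23. Those lower were Rps27l, Rpl7l1 and Rps10, the last at 3.21 to 8.34 CPM and named after its values were seen. The same 3 were lower in BV2 without DMSO. The members' median was thus positive with DMSO and -0.20 in the untreated monocultures, and the difference between these experiments was not tested. Effects of DMSO and of the experiment cannot be told apart here. Without replicate 2 of the normoxic DMSO group 43 members were called, 41 of them higher, while leaving out a hypoxic library left 1 or 2. In BMDM with DMSO 0 of 89 were called in hypoxia, with 0.483% of all genes called, a median of 0.60, 10 members at an unadjusted p under 0.05 and 4 called by DESeq2. The median was 0.18 without replicate 1 of the hypoxic group, the library with the fewest matrix and myeloid transcripts of that group. The hypoxia effects of BV2 and BMDM with DMSO did not differ past the threshold for any member (0 of 89 by edgeR, 2 at an unadjusted p under 0.05, 0 by DESeq2, and 0.664% of all genes).

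Contact with glioma cells raised some of the members in normoxic BV2 cells. Of 88 tested 15 were higher and 0 lower in co-culture, against 5.77% and 9.14% of all genes, with a median of 0.35. The calls ran from 0.38 to 0.69. Rpl27 (0.52 ± 0.15, edgeR adjusted p = 0.027) rose from 296 and 230 CPM to 350 and 403 CPM. Rpl38, known for its part in the translation of Hox mRNAs (chr11:114668524-114672331, plus strand), rose from 198 and 162 CPM to 240 and 271 CPM (0.51 ± 0.14, adjusted p = 0.022). Neither pair of groups overlapped. Of the 8 exit tunnel genes 6 were among the 15. Between 0 and 20 were called with a library left out: 0 without normoxic monoculture replicate 2 or co-culture replicate 2, and 1 without co-culture replicate 1. In hypoxia the members' median was -0.21, and 2 of 88 were called lower, Rps23 of the decoding centre (-0.42 ± 0.12) and Rpl41 (-0.40 ± 0.13), against 7.57% of all genes called lower and 8.13% higher. That count was 12 without hypoxic monoculture replicate 2, 7 without hypoxic co-culture replicate 2, 1 without co-culture replicate 1 and 0 without monoculture replicate 1. Tested as a difference, the hypoxia effect was lower in co-cultured than in lone BV2 cells for 2 members, Rpl38 (-0.80 ± 0.19, adjusted p = 0.043) and Rps23 (-0.76 ± 0.17, adjusted p = 0.036), against 1.03% of all genes called lower and 1.16% higher. For this difference 69 members had an unadjusted edgeR p under 0.05 and DESeq2 called 45, all lower. The edgeR count for the difference ran from 0 to 56 with a library left out. It was 0 without monoculture normoxic replicate 2, hypoxic replicate 1 or either normoxic co-culture library, 7 without normoxic monoculture replicate 1, 56 without hypoxic monoculture replicate 2 and 38 without hypoxic co-culture replicate 2. These 3 comparisons share libraries with each other and with the hypoxia comparisons.

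In GL261 contact with BV2 cells changed 0 of 89 members by edgeR in normoxia (median 0.29, 6 at an unadjusted p under 0.05, 0 by DESeq2, 0.514% of all genes called) and 0 in hypoxia (median -0.20, 1 at an unadjusted p under 0.05, 0 by DESeq2, 1.39% of all genes). The test of the hypoxia effect between the cultures of GL261 gave 0 members (17 at an unadjusted p under 0.05, 0 by DESeq2, 0% of all genes), with a median difference of -0.50. In BMDM contact with GL261 cells also gave 0 calls by edgeR in normoxia (median 0.27, 13 at an unadjusted p under 0.05, 0 by DESeq2, 1.64% of all genes) and in hypoxia (median 0.12, 2 at an unadjusted p under 0.05, 1 by DESeq2, 7.11% of all genes). The difference of the hypoxia effects in BMDM called 0 members (0 at an unadjusted p under 0.05, 0 by DESeq2, 0% of all genes).

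Panobinostat in hypoxia gave few calls among the members. In BV2 1 of 87 was called, lower, against 7.39% of all genes called lower and 7.21% higher, and the median was -0.20. It was Rpl36al, at 6.21 and 5.98 CPM with DMSO and 1.29 and 2.74 CPM with panobinostat (-1.58 ± 0.41, edgeR adjusted p = 0.032). The groups were apart, the level was low, and the call was lost when any 1 of the 4 libraries was left out. The most abundant member of the panel, Rplp0, was at 3703 and 3559 CPM against 3038 and 2854 CPM (-0.30 ± 0.27, adjusted p = 0.48). In BMDM 0 of 89 were called (4 at an unadjusted p under 0.05, 3 by DESeq2, 0% of all genes), with a median of -0.40 that ran from -0.68 to -0.05 with a library left out. The value of -0.05 was without replicate 1 of the DMSO group in hypoxia. Panobinostat effects in BV2 and BMDM did not differ past the threshold for any member (0 of 89 by edgeR, 0 at an unadjusted p under 0.05, 0 by DESeq2, and 0.0251% of all genes). These comparisons share the hypoxic DMSO libraries with the hypoxia comparisons.

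Ribosome biogenesis factors were called lower most often in BV2. The shares of all genes called in each comparison are those given with the members. Among 84 of them, which assemble the subunits in the nucleolus, 77 were lower and 1 higher in hypoxic BV2 monocultures, with a median of -1.23, while the members there had -0.20. BV2 co-cultures had 72 lower and a median of -1.09, and BV2 with DMSO 67 lower and -1.21. Bop1, a factor of large subunit maturation, went from 222 ± 0.2 to 30.2 ± 4.3 CPM in BV2 monocultures (mean ± SD, n = 2 each), a change of -2.88 ± 0.17. In GL261 monocultures the list split, with 19 higher and 23 lower and a median of -0.03, close to the 23.2% and 21.4% of all genes, and in GL261 co-cultures 14 were higher and 35 lower, with a median of -0.19. Nop10, of the RNA-modifying H/ACA particles, still fell by 2.04 and 2.70 in GL261. BMDM had 33 lower and 2 higher alone and 43 lower and 2 higher in co-culture, with medians of -0.56 and -0.47. Dkc1, the enzyme of the same particles, fell there by 1.64 and 1.83.

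Mitochondrial ribosomal proteins, which build the separate ribosome of the mitochondrion, also had their largest counts of falls in BV2, where 72 of 77 were lower alone (median -1.12) and 74 of 77 in co-culture (median -1.22), with 0 higher in both. The shares of all genes called are again those given with the members. GL261 had 26 lower and 10 higher alone (median -0.21) and 46 lower and 5 higher in co-culture (median -0.51). BMDM had 20 lower and 1 higher alone (median -0.43) and 36 lower and 2 higher in co-culture (median -0.42). Mrpl42 fell in 7 of the 8 hypoxia comparisons, all but that of BMDM with DMSO, by 0.95 in BMDM monocultures up to 2.89 in BV2 co-cultures. Of 29 initiation factors 21 were lower in BV2 monocultures (median -0.81). In GL261 monocultures 8 were higher and 4 lower (median 0.03), against 23.2% and 21.4% of all genes. Among 19 elongation factors and other mRNAs with a terminal pyrimidine run, such as Eef2 and Tpt1, 13 were lower and 1 higher in GL261 co-cultures (median -0.62), and 14 lower and 3 higher in BV2 co-cultures (median -0.61).

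**Figure D5:**
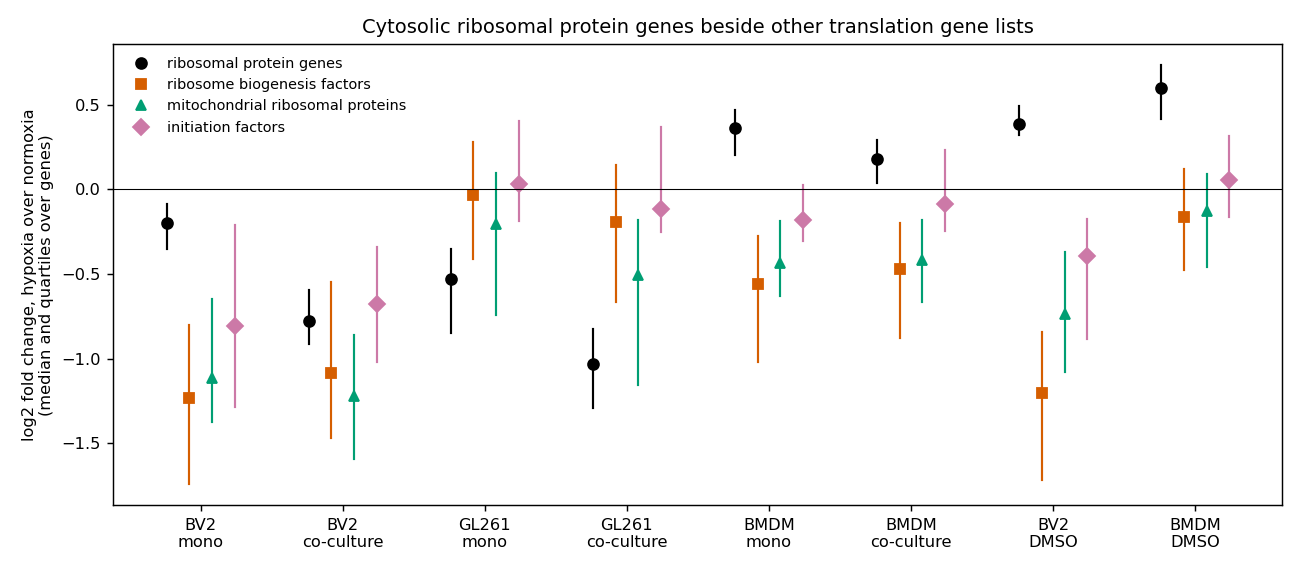
Median (symbol) and quartiles (line) over genes of the log2 fold change of hypoxia over normoxia (y axis) in 8 comparisons (x axis), for the cytosolic ribosomal protein genes and other lists of translation genes. In BV2 monocultures biogenesis factors (-1.23) and mitochondrial ribosomal proteins (-1.12) lie below the members (-0.20), and in GL261 co-cultures the members (-1.03) lie below both (-0.19 and -0.51).

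Proteins of the ribosome whose symbols fall outside the naming rule include Rack1 and Fau, the latter made as a fusion with a ubiquitin-like sequence. Fau rose by 0.43 in BV2 monocultures, 0.64 and 0.77 in BMDM and 0.86 in BV2 with DMSO, and fell by 0.51 in GL261 co-cultures. Rack1, a scaffold on the small subunit, fell by 0.74 in BV2 and 0.86 in GL261 co-cultures. Among the regulators of these mRNAs Ddit4 rose in 7 hypoxia comparisons, by 1.90 in GL261 monocultures to 4.41 in BV2 monocultures, and missed the test in BMDM with DMSO (1.99 ± 0.39, edgeR adjusted p = 0.074). Larp1 fell by 1.05, 1.04 and 1.03 in the 3 BV2 comparisons and by 0.45 in GL261 co-cultures.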

How the data were processed

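RNA of 38 cell libraries was measured. The authors deposited whole-number read counts per Ensembl gene; per the submitters' processing notes Trimmomatic 0.36, STAR 2.6, SAMtools, HTSeq 0.9.1 and deepTools were used with mm10, and Picard 2.17.1 is named for 16 libraries. The strand setting of the counting and the annotation release are not given in the sources used here. Symbols came from GENCODE M21 (GRCm38), which named 55141 of 55487 gene identifiers.

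Deposited counts were fitted per cell type and experiment in R 4.3.3 with edgeR 4.0.16 (filterByExpr with a minimum count of 10 and a minimum total of 15, TMM scaling, group means, quasi-likelihood F test). P-values were adjusted by Benjamini-Hochberg over all genes tested, with a threshold of 0.05, and differences of effects were tested as interactions. Levels are TMM-scaled CPM. DESeq2 1.42.0, other scalings and filters, each comparison's groups alone, the replicate number as a block and leaving out each library were alternatives. For 2 comparisons the fit was also run on counts simulated from its own means and spread. That setting cannot show whether the model suits these data. With 2 or 3 libraries a group, depth is less of a limit than replicate number. Standard errors of log2 fold changes come from the edgeR test and include the spread between libraries. The floors in CPM cover counting error only.

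Members, gene lists and tests were chosen with earlier results of these data known. Genes named are the 2 largest rises and 2 largest falls called per comparison at a mean log2 CPM of at least 4, 1 per direction for interactions, at most 2 per direction of each related list, and a fixed panel of stalk, 5S, small subunit and second-copy proteins with the genes they copy. Promoters came from RefSeq. All replicate pairs (22) differed by more than counting noise (chi-square per degree of freedom 6.7 to 155.5). In BMDM co-cultures the deviations from the group means of same-numbered libraries correlated by 0.455, 0.244 and 0.407. The labels do not say whether the numbers pair libraries, and the main tests used no pairing.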

Additional observations from a re-analysis of the deposited data

Results flagged for a closer look

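Effects that differed between groups by a test of the difference itself were the following, by edgeR's quasi-likelihood test with Benjamini-Hochberg adjustment. The hypoxia effect was called different between co-cultured and lone BV2 cells for 2 ribosomal protein genes. Of all genes 1.03% were called lower and 1.16% higher. DESeq2 called 45 of the members, and 69 had an unadjusted edgeR p under 0.05, all lower. One of the 2 edgeR calls was Rpl38, whose log2 change was lower in co-culture by -0.80 (adjusted p = 0.043). That call was lost without any 1 of 4 libraries. Between BV2 and GL261 monocultures the hypoxia effect differed for 23 ribosomal protein genes, against 37.4% of all genes. Rps21 had a difference of 1.18 (adjusted p = 0.0012) and Rps27l one of -0.93 (adjusted p = 0.0067), and both calls held under all 17 alternatives.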

How the results depend on the processing

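Over 22 counts of ribosomal protein genes called, 240 of 313 alternatives stayed within 1.5 times the main count, over 16 medians 195 of 212 stayed within the spread, and over 253 values of single genes 3164 of 3340 kept direction and side of the threshold, with 0 reversed.

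Counts that moved were these; the cause was not tested. In normoxic BV2, co-culture against monoculture (15) gave 25 with DESeq2 size factors, 39 with library totals, 52 without a filter, 41 at a mean CPM of at least 5, 29 with the -ps rows added, 41 with DESeq2 and 58 with the compared groups alone. In hypoxic BV2 (2) it gave 35 without a filter, 1 at CPM 5 and 6 with -ps rows. The BV2 difference of hypoxia effects (2) gave 16 with totals, 69 without a filter, 13 at CPM 5, 21 with -ps rows and 45 with DESeq2. Hypoxia in BV2 monocultures (25) gave 14 at CPM 5. BMDM monocultures (8) gave 3 with totals, 5 without a filter, 15 with DESeq2 and 52 with the compared groups alone, and BMDM co-cultures (7) 4 with the compared groups alone. BMDM co-culture in hypoxia (0) gave 1 with DESeq2. Panobinostat in BV2 (1) gave 0 with totals or at CPM 5 and 2 with the compared groups alone. BV2 with DMSO (4) gave 11 at CPM 5, 16 with DESeq2 and 2 with the compared groups alone. BMDM with DMSO (0) gave 2 without a filter and 4 with DESeq2, and panobinostat in BMDM (0) gave 2 and 3.

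The replicate block gave 11 calls in BV2 with DMSO (8 higher), 2 in BMDM with DMSO, 2 with panobinostat in BMDM and 1 for the difference between BV2 and BMDM with DMSO. For hypoxia in BMDM co-cultures it gave 8 in place of 7, and it moved no other count by over 1.5 times. Outside these co-cultures groups share only 2 numbers, and same-numbered libraries correlated by -0.08 to 0.17 in BV2, 0.04 to 0.37 in GL261, 0.15 to 0.39 in BV2 with DMSO or panobinostat and 0.34 to 0.59 in such BMDM.

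Medians that moved were GL261 co-cultures (-1.17 at CPM 5), BMDM monocultures (0.11 with totals, 0.26 without a filter), BMDM co-culture in hypoxia (0.22 with totals), panobinostat in BV2 (-0.10 with totals, -0.15 at CPM 5) and panobinostat in BMDM (-0.10 with totals). No scaling changed the sign of a median. Library totals in place of TMM moved every gene by -0.26 in BMDM monocultures, -0.12 in BMDM co-cultures, -0.11 in BV2 co-cultures and -0.14 in BV2 with DMSO (hypoxia), by 0.10 in BMDM co-culture in hypoxia, and by 0.11 (BV2) and 0.30 (BMDM) with panobinostat.

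With 1 library left out, where a lone library is assumed to vary like the others, counts ran from 5 to 33 (hypoxia, BV2 monocultures), 70 to 82 (BV2 co-cultures), 17 to 70 (GL261 monocultures), 72 to 74 (GL261 co-cultures), 0 to 1 (BMDM monocultures), 4 to 23 (BMDM co-cultures), 1 to 43 (BV2 with DMSO), 0 to 20 (BV2 co-culture in normoxia), 0 to 12 (in hypoxia), 0 to 56 (BV2 difference), 0 to 0 (panobinostat in BV2) and 7 to 41 (BV2 against GL261). Medians ran, in the order of the hypoxia comparisons, from -0.35 to -0.07, -0.95 to -0.63, -0.74 to -0.21, -1.07 to -0.97, 0.24 to 0.40, 0.07 to 0.32, 0.22 to 0.64 and 0.18 to 0.86 (BMDM with DMSO). For co-culture they ran from 0.22 to 0.47 and -0.39 to -0.18 (BV2, normoxia and hypoxia), 0.08 to 0.61 and -0.30 to -0.11 (GL261), and 0.12 to 0.37 and 0.06 to 0.20 (BMDM), and for panobinostat from -0.24 to -0.19 (BV2) and -0.68 to -0.048 (BMDM). Replicate number limits these results more than depth, except for members under about 5 CPM such as Rpl36al.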

Other observations

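Rps4l, an intron-less copy of Rps4x annotated as a processed pseudogene, was listed in BMDM and nearly absent from the lines. It was at 4.32 to 13.6 CPM in the 10 BMDM libraries of the co-culture experiment and at or below 0.12 CPM in all BV2 and GL261 libraries. In the panobinostat experiment it was at 24.997 and 20.6 CPM with DMSO in normoxia, 14.9 and 13.2 CPM with DMSO in hypoxia and 34.6 and 31.9 CPM with panobinostat. The panobinostat libraries were above the DMSO libraries, with a log2 difference of 1.24 ± 0.25 that missed the threshold (edgeR adjusted p = 0.066). Myeloid and matrix genes differ between these libraries as well, and their part was not tested.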
